A study of Mus musculus with 8 samples.

Results

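The genes described are Ier2, Btg2, Klf10, Atf3, Cebpb, Crem, Bhlhe40 and Tiparp, regulators of transcription and RNA that neural activity and other stimuli induce and that lie outside the AP-1, Egr and Nr4a families. They were taken by name: every probe set (a group of short oligonucleotides on the array read out as 1 value) that the platform annotation gives to a single one of these symbols was included. This gave 8 of 8251 genes with a probe set of their own, and 12 of 12422 probe sets on the array without its controls. Of the 12, 10 passed the filter on dim signals used for testing, and each of the 8 genes had at least 1 of them.

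The RNA came from visual cortex of wild-type C57Bl6 mice in which 1 eye had been removed at postnatal day 20 and which were killed 4 days later, at postnatal day 24. The non-deprived group is the 4 arrays of cortex on the side of the removed eye, and the deprived group the 4 arrays of cortex opposite to it, which normally receives most of that eye's input. All 8 arrays thus share the operation, age and strain, and mice that kept both eyes were not analysed here, so each difference below is between the hemispheres of operated mice. The labels name 4 operated mice and the design text pooled hemispheres, so whether an array stands for 1 mouse is unclear, and p-values measure only the spread between these arrays, which may be technical.

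Immediate-early and related inducible regulators are transcribed from promoters that are ready before the stimulus arrives. Calcium entry and receptor signalling activate kinases that phosphorylate factors already bound there, among them CREB at cAMP response elements and SRF with its partners at CArG boxes, and the messages made are short-lived. In visual cortex, light and patterned vision induce many of them in excitatory neurons and interneurons. Most of the 8 genes are also induced in other cells, by growth factors, cellular stress, cytokines or foreign chemicals. In whole tissue, fewer cells of a type and less RNA per cell cannot be told apart.

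The sequences in front of the genes are shown because these genes are defined by how they are induced. The promoter table, from RefSeq on GRCm38.p6, matched 4 of the 8 genes: Btg2, Atf3, Cebpb and Tiparp. Shown are the 250 bases before each annotated start, 5′ to 3′ on the gene's strand, at chr1:134079156-134079405 (minus strand) for Btg2, chr1:191183334-191183583 (minus strand) for Atf3, chr2:167688665-167688914 (plus strand) for Cebpb and chr3:65528197-65528446 (plus strand) for Tiparp. Capitals mark matches, on either strand, to the cAMP response element TGACGTCA, to its core TGACG and to GCGTG, the core of the element bound by the aryl hydrocarbon receptor.
Btg2: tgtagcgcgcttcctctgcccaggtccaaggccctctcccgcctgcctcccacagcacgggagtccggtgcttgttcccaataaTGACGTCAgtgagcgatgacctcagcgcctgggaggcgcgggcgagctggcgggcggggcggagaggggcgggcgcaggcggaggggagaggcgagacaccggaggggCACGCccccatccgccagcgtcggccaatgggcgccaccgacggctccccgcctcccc
Tiparp: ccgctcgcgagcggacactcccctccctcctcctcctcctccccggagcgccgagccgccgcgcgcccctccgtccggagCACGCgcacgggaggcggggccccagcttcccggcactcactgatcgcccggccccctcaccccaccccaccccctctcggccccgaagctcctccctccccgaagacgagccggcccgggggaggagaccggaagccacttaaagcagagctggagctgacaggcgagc
Cebpb: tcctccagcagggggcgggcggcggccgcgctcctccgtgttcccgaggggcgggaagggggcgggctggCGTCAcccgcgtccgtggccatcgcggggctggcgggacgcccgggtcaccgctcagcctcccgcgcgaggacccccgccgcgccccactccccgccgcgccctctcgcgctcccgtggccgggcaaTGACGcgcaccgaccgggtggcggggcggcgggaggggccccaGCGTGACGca
Atf3: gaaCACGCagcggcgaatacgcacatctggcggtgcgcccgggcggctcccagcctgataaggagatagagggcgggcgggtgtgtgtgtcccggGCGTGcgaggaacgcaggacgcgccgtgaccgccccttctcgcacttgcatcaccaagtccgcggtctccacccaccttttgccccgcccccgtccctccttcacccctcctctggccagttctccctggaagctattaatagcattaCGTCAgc

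Btg2 held the full TGACGTCA, from 166 to 159 bases before the start, a palindrome that also counts as a core match on each strand. Of all 32851 promoter windows of the same length, 1.55% held the full element and 17.8% the core. Atf3 held 1 core match, 7 to 3 bases before the start. Cebpb held 3, of which the one next to the start overlaps a GCGTG match. The core was not found in the window of Tiparp, whose 1 match was to GCGTG. That motif was present in 28.2% of all windows, and also in those of Btg2, Atf3 and Cebpb. The E-box CACGTG (6.02% of all windows) and the CArG box (1.47%) were not found in any of the 4. These 4 windows were 65.2% to 81.6% G and C, against a median of 52.4% over all windows. A match is a description of letters, and binding was not measured.

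**Figure D1:**
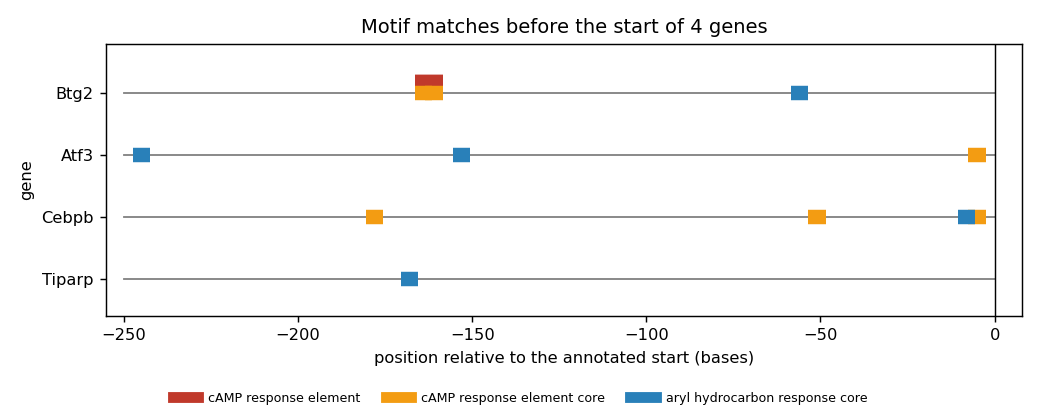
Motif matches in the 250 bases before the annotated start of Btg2, Atf3, Cebpb and Tiparp, plotted by distance from the start in bases; coloured boxes are matches on either strand, and the full element is drawn above its core. Among the 4 genes the full cAMP response element appears in Btg2 only, 166 to 159 bases before the start.

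The values are linear signal intensities per probe set, made by the authors with MAS5, and every array has a trimmed mean of about 500. The median signal per array was 183 to 209. Differences are deprived minus non-deprived on the scale log2(signal + 15.3), where the added pseudocount understates changes of dim probe sets. Tests are two-sided and come from limma over 7453 probe sets with Benjamini-Hochberg adjustment, and a call needed an adjusted p under 0.05. Signals of different probe sets cannot be ranked against each other, so each gene is compared only with itself.

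Ier2, which encodes a short nuclear protein of the immediate-early response, was lower in deprived cortex on every array. Its signals were 812, 1034, 795 and 1105 in non-deprived replicates 1 to 4, and 543, 612, 534 and 721 in deprived replicates 1 to 4. The groups did not overlap, and only 0.805% of all tested probe sets had all deprived arrays below all others. The immediate-early genes Fos, Fosb, Junb, Egr1, Egr2 and Nr4a1 showed this separation too. The means were 936 ± 157 and 603 ± 86.1 (SD, n = 4 each), a log2 difference of -0.62 ± 0.16 (SE) with a 95% interval of -0.97 to -0.26. In limma the unadjusted p was 0.0026 and the adjusted p 0.995, so Ier2 did not pass over the whole array. Same-numbered arrays deviate together over all probe sets, so differences are also given by pair. The SE, interval and p given for each gene come from the fit for group only, which leaves this pairing out. Where 1 array was left out, the same fit was used and the other array of that number stayed in. With the replicate number as a block the SE was 0.11 for Ier2, with an adjusted p of 0.224 in limma. For Bhlhe40 the SE was 0.11 with the block and 0.23 without it. By pair the differences of Ier2 were alike, at -0.57, -0.74, -0.56 and -0.60.

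Btg2, whose protein restrains proliferation and recruits the CCR4-NOT deadenylase to messages, was next. Its signals were 1887, 1930, 2517 and 2736 in non-deprived replicates 1 to 4, and 1419, 1431, 1522 and 2124 in deprived replicates 1 to 4. Deprived replicate 4 stood far above the other 3 of its group and above non-deprived replicates 1 and 2, so the groups overlapped. The means were 2267 ± 424 and 1624 ± 337 (SD, n = 4 each), a log2 difference of -0.48 ± 0.18 (SE) with a 95% interval of -0.86 to -0.10. Each pair was nevertheless lower on the deprived side, by -0.41, -0.43, -0.72 and -0.36. Without deprived replicate 4 the difference was -0.61. Adding as a covariate the ratio between the 3' and 5' controls for actin, which reads RNA integrity, gave -0.21. This actin ratio was 1.39 ± 0.179 without and 1.64 ± 0.239 with deprivation (SD over 4 arrays each, two-sided exact permutation p = 0.171). Its part in the difference of Btg2 was not tested. The unadjusted p in limma was 0.0183 and the adjusted p 0.995.

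Tiparp had the lowest difference of the 8 genes. It encodes a mono-ADP-ribosyltransferase that the aryl hydrocarbon receptor induces and that represses this receptor in turn. Its signals were 174, 273, 199 and 193 in non-deprived replicates 1 to 4, and 79.4, 181, 167 and 72.4 in deprived replicates 1 to 4. Deprived replicates 1 and 4 lay far below the rest, while deprived replicate 2 lay above non-deprived replicate 1. The means were 210 ± 43.6 and 125 ± 57.0 (SD, n = 4 each), a log2 difference of -0.76 ± 0.30 (SE) with a 95% interval of -1.41 to -0.11. By pair it ranged from -0.23 for number 3 to -1.25 for number 4. The unadjusted p in limma was 0.0260 and the adjusted p 0.995. The probe set is dim, with a deprived mean close to the filter's signal of 110, and its value was -0.49 with a pseudocount of 100 and -1.09 with the actin ratio as a covariate.

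**Figure D2:**
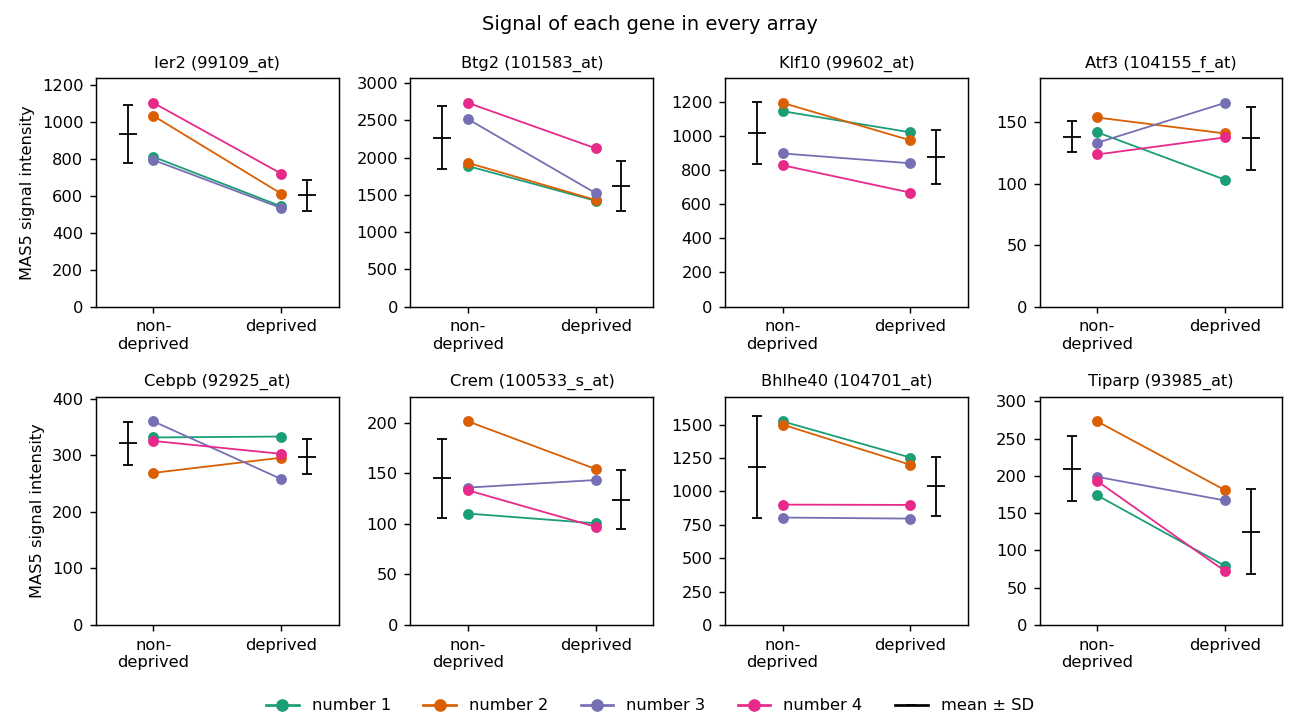
MAS5 signal intensity of the brightest probe set of each gene (y axis, from 0) in non-deprived and deprived cortex, with lines joining arrays of the same replicate number and black bars for the mean ± SD of 4 arrays. All 4 deprived arrays of Ier2 (534 to 721) lie below its non-deprived arrays (795 to 1105), and the other genes overlap.

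Klf10 and Bhlhe40 encode transcriptional repressors and were lower in every pair by small amounts. Klf10, a zinc-finger factor known as a target of TGF-beta, had signals of 1144, 1193, 897 and 828 in non-deprived replicates 1 to 4, and 1020, 974, 839 and 667 in deprived replicates 1 to 4. The groups overlapped, with a log2 difference of -0.21 ± 0.18 (SE), a 95% interval of -0.60 to 0.17 and adjusted p = 0.995 in limma. By pair the differences were -0.163, -0.289, -0.094 and -0.305. Leaving out deprived replicate 4 brought Klf10 to -0.09, with non-deprived replicate 4, the lowest of its group, kept in. The actin ratio as a covariate brought Klf10 to -0.45. A second, dimmer probe set of Klf10 gave -0.29 ± 0.20 (SE) and was lower in 3 of 4 pairs, with 475 and 605 in the pair numbered 3. The array makers' suffix of that probe set marks probes common to a group of transcripts.

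Bhlhe40, a basic helix-loop-helix repressor that binds E-boxes and acts on clock genes, had signals of 1525, 1501, 805 and 902 in non-deprived replicates 1 to 4. In deprived replicates 1 to 4 they were 1254, 1200, 797 and 899. Arrays numbered 1 and 2 were high and those numbered 3 and 4 low in both hemispheres, and the step between these arrays was larger than that between hemispheres. The log2 difference was -0.15 ± 0.23 (SE), with a 95% interval of -0.66 to 0.36 and adjusted p = 0.995 in limma. By pair it was -0.28 and -0.32 for numbers 1 and 2, but -0.014 and -0.004 for numbers 3 and 4. Leaving out non-deprived replicate 1 gave -0.01 and leaving out replicate 3 of that group -0.32. The deprived array of the same number stayed in, so both values carry part of the step between numbers. They do not show how far the difference between hemispheres rests on 1 array. Adding the actin ratio to the fit brought Bhlhe40 to -0.43. With the corresponding Gapdh ratio as a covariate it turned to 0.00486.

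The remaining genes encode leucine-zipper factors, and their hemispheres differed by less than the spread between arrays. Crem encodes activators and repressors of the CREB family, among them an inducible repressor made from an internal promoter. Its signals were 110, 201, 136 and 133 in non-deprived replicates 1 to 4, and 101, 154, 143 and 97.1 in deprived replicates 1 to 4, so the groups overlapped almost wholly. The log2 difference was -0.20 ± 0.25 (SE), with a 95% interval of -0.75 to 0.35, and it was -0.05 without non-deprived replicate 2 and -0.34 with the actin ratio as a covariate. Another probe set of Crem gave -0.01 ± 0.26 (SE), with signals of 81 to 146 against 85.2 to 144 after deprivation. Both carry a suffix for probes that can be shared between transcripts, so the isoforms are not told apart.

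Cebpb, a factor of inflammatory and metabolic responses that neurons also express, had signals of 331, 269, 360 and 325 in non-deprived replicates 1 to 4. Those of deprived replicates 1 to 4 were 333, 296, 258 and 302. The arrays numbered 3 stood apart, and the other pairs lay close together. The log2 difference was -0.11 ± 0.16 (SE) with a 95% interval of -0.46 to 0.25, and it was -0.04 without deprived replicate 3 and -0.20 with the Gapdh ratio as a covariate.

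Atf3, which cellular stress and nerve injury induce, was dim. Its brightest probe set had signals of 142, 154, 133 and 124 in non-deprived replicates 1 to 4, and 103, 141, 166 and 138 in deprived replicates 1 to 4. This probe set also carries a suffix for probes that can be shared between transcripts, so its signal may not be of Atf3 alone. Pairs 1 and 2 were lower and pairs 3 and 4 higher on the deprived side. The log2 difference was -0.02 ± 0.22 (SE) with a 95% interval of -0.49 to 0.45. It turned to 0.09 when deprived replicate 1 was left out, and to 0.02 either when non-deprived replicate 2 was left out or with weights for the arrays. The other probe sets of Atf3 were left out by the filter, with signals of 29.8 to 115 and of 7.3 to 18, and had log2 differences of -0.10 and 0.13. For Crem, Cebpb and Atf3 the adjusted p in limma was 0.995, and for the second Crem probe set 0.997.

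**Figure D3:**
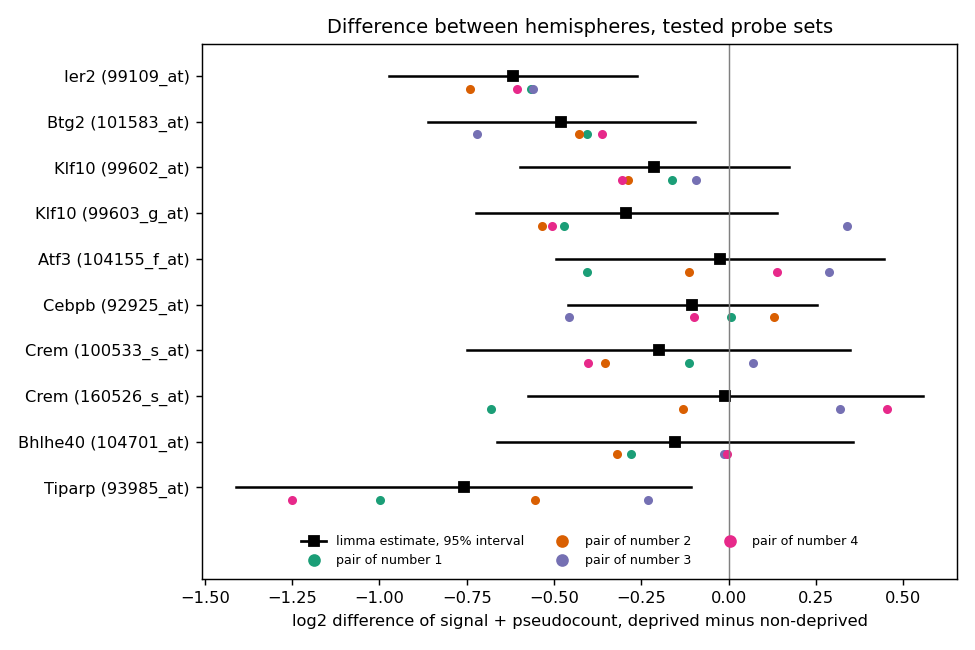
Log2 difference of signal plus pseudocount, deprived minus non-deprived (x axis), for the 10 tested probe sets of the 8 genes; squares and lines are the limma estimate and its 95% interval, and coloured dots the 4 same-numbered pairs. The intervals come from the fit without pairs. Those of Ier2, Btg2 and Tiparp lie below 0 before any adjustment over probe sets, and those of the other 7 probe sets cross it.

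Counted over genes by their brightest probe set, 8 of 8 differences were below 0, where 45.1% of all tested probe sets were. In 5 of 8, Ier2, Btg2, Klf10, Bhlhe40 and Tiparp, the deprived array was the lower one in 4 of 4 pairs, against 6.92% of all tested probe sets. For Bhlhe40 pairs 3 and 4 were nearly equal, at -0.014 and -0.004, and the second Klf10 probe set was lower in 3 of 4 pairs. At an unadjusted p under 0.05 in limma, 3 of 8 were lower, against 1.22% over the array, and the same 3 with the replicate number as a block, against 3.65%. After adjustment 0 of 8 passed with or without the block, and the array as a whole gave 0% and 0%. At an unadjusted p under 0.05 there were 199 of 7453 probe sets in either direction without the block and 524 with it. The median of the 8 genes was -0.21, that of all tested probe sets 0.02. Without deprived replicate 4, but with non-deprived replicate 4 kept, the median of the 8 was -0.11. By pair it was -0.34, -0.34, -0.16 and -0.33 for numbers 1 to 4. These genes were picked with earlier results of the same arrays known, so the counts describe them and are no independent support.

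The genes did not move together from array to array. Ier2 and Btg2 correlated at 0.80 over the 8 arrays (Pearson; Spearman 0.738), and at 0.521 after each group's mean was subtracted. Klf10 and Bhlhe40 correlated at 0.831 (Spearman 0.786) and at 0.836 after subtraction. Crem and Tiparp had 0.859 (Spearman 0.738) and 0.910. These r values were 0.645, 0.934 and 0.722 when the 2 arrays farthest from the median of the gene named before were left out. Atf3 and Cebpb ran against each other, with -0.709 (Spearman -0.762) and -0.790 after subtraction. All 28 pairings of the 8 genes were computed, and the arrays share replicate numbers and overall array properties, so these values are descriptions.

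Set beside better known immediate-early genes, Btg2 was closest to Junb, while the values of Ier2 were spread over all 4 genes. Over the 8 arrays Ier2 correlated at 0.890 with Fos, 0.786 with Egr1, 0.908 with Nr4a1 and 0.911 with Junb. All of these genes were lower after deprivation by value, and with each group's mean subtracted the r values of Ier2 were smaller, at 0.537, 0.376, 0.689 and 0.623 in the same order. Btg2 correlated at 0.933 with Junb but at 0.604, 0.427 and 0.583 with Fos, Egr1 and Nr4a1. After the same subtraction Btg2 had 0.974 with Junb, and -0.121, -0.287 and -0.0236 with the other genes. Non-deprived replicate 2 was the highest array for Fos, Egr1 and Nr4a1, and non-deprived replicate 4 for Ier2, Btg2 and Junb.

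**Figure D4:**
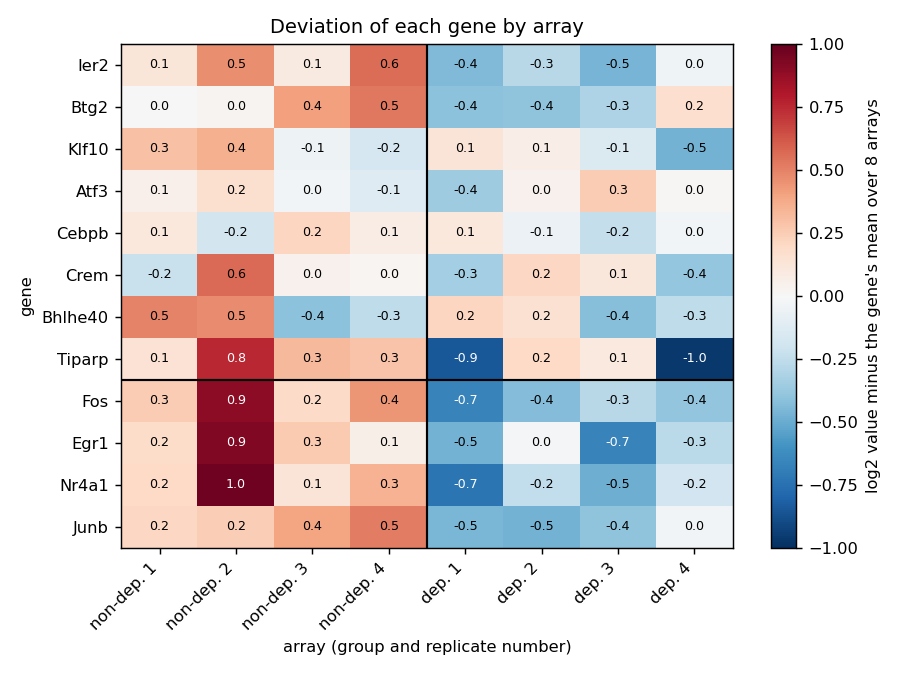
Log2 value of each gene minus its mean over the 8 arrays (colour and printed number), with arrays in columns by group and replicate number; the 8 regulators stand above the line and Fos, Egr1, Nr4a1 and Junb below it. Ier2 runs from 0.09 to 0.56 in non-deprived and from -0.47 to -0.05 in deprived arrays, while Bhlhe40 is above 0 in the arrays numbered 1 and 2 of both groups and below 0 in those numbered 3 and 4.

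The genes most like each regulator were sought among the other named probe sets, 6749 or 6750 for each, by Pearson correlation over the 8 arrays. For Ier2 these were Oaz2 (r = 0.938), an antizyme of polyamine metabolism, Dusp6 (0.937), a MAP kinase phosphatase, and Scamp3 (0.924), a secretory carrier membrane protein. Dusp6 itself had a mean signal of 2614 without deprivation and 1775 with it. For Btg2 they were Prkaca (0.946), a catalytic subunit of protein kinase A, Tmem109 (0.942) and Igfbp2 (0.936), a binding protein of insulin-like growth factors. For Tiparp they were Sbds (0.915), Atad3a (0.909) and Urod (0.905). For Klf10 they were Usp33 (0.975), Dnttip2 (0.964) and Lmo7 (0.961), and for Bhlhe40 Cul3 (0.985), Lats2 (0.969) and Trim59 (0.968). Atf3 was closest to Midn (0.959), Rere (0.896) and Mlx (0.889), Cebpb to Tmem97 (0.954), Rnf167 (0.944) and Ifitm10 (0.944), and Crem to Sc5d (0.939), Csnk1a1 (0.939) and Dstn (0.931). The highest of 6750 correlations over 8 arrays is high by selection. With subtracted group means the 24 values ran from 0.724 for Ier2 with Scamp3 to 0.997 for Bhlhe40 with Trim59.

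Of 30 other immediate-early regulators on a list, 20 were on the array under these names and 17 were tested. In limma 0 passed in either direction, 13 lay below 0 and 4 above, and the median was -0.29. Of the 17, 6 were lower in 4 of 4 pairs, namely Fos, Fosb, Junb, Egr1, Egr2 and Nr4a1. Each of these also had its deprived arrays all below the others. Fos, an AP-1 subunit, had mean signals of 2818 ± 665 and 1495 ± 165 (SD, n = 4 each), and Junb, its partner, 1465 ± 146 and 913 ± 145. Egr1 and Nr4a1 had log2 differences of -0.71 and -0.83. The same kind of gene was not uniformly lower, since Jun had 0.32, Fosl2 0.14, Klf6 0.10 and Btg1 0.01.

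Genes that act upstream lay mostly above 0. Of 30 kinases, cofactors, bound factors and other genes of CREB, SRF and MEF2 signalling, 16 were tested. Of these 3 lay below 0, where 45.1% of all tested probe sets did, and 13 above. In limma 0 passed in either direction, and the median was 0.12 against 0.02 over all tested probe sets. Crebbp, a histone acetyltransferase recruited by CREB, had a mean signal of 938 ± 153 without and 1268 ± 305 with deprivation (SD over 4 arrays each), higher in every pair. Prkaca had 2269 ± 377 and 1878 ± 440, lower in every pair. Whether the upstream genes and the 8 regulators differ was not tested.

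Close relatives of the 8 genes showed no shared direction, and 0 of them passed in limma. Ier3, the one tested relative of Ier2, had a log2 difference of -0.24. The relatives of Btg2 were Btg1 (0.01) and Tob1 (-0.07). Of 8 tested Krüppel-like factors 3 lay below 0, the smallest p values being those of Klf5 (0.25) and Klf6, with a median of 0.05. Among relatives of Atf3 and Crem, 4 of 5 lay below 0 (median -0.11), with Atf4, a translationally controlled stress factor, at -0.22 and Atf2 at 0.17. Of 7 relatives of Cebpb, 4 lay below 0 (median -0.02), and Nfil3, a repressor of the PAR zipper family, had 247 ± 70.2 and 154 ± 32.9 (SD, n = 4 each) with an unadjusted p of 0.0249 in limma. Nfil3 was lower in 3 of 4 pairs with overlapping groups, and its probe set carries a suffix for probes that can be shared between transcripts. Cebpd had -0.31. Of 4 relatives of Bhlhe40, 3 lay above 0 (median 0.26), with Hes3 at 0.69 and Hes1, a Notch target, at 0.33. Hes3 was dim, with mean signals of 111 ± 28.4 without and 201 ± 99.7 with deprivation (SD over 4 arrays each) against the filter's signal of 110. All 4 tested poly-ADP-ribose polymerase relatives of Tiparp lay above 0 (median 0.08), with Parp1 at 0.24 and Parp2 at 0.09.

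The pathways in which the 8 genes are known to act were read out from further lists, again with 0 calls in either direction in limma. Of 13 tested stress-response genes around Atf3, 6 lay below 0 (median 0.01). Cdkn1a, the p21 cell-cycle inhibitor, had a mean signal of 404 ± 94.3 without and 258 ± 58.9 with deprivation (SD over 4 arrays each), lower in every pair, with an unadjusted p of 0.0186 in limma, and Atf4 came next. In the growth arrest and deadenylation list around Btg2, which also holds Cdkn1a, 2 of 9 lay below 0 (median 0.13), and Ccnd2 had 0.44. Injury and inflammation genes around Cebpb had 3 of 9 below 0 (median 0.11), with Vim, an intermediate filament, at 0.51 and Cebpd at -0.31. Vim was dim, with mean signals of 111 without and 166 with deprivation against the filter's signal of 110. Gfap had 0.08, and the others below 0 were Timp1 (-0.20) and Serpina3n (-0.28). The cytokine genes Il1b, Il6, Ccl2 and Tnf were all too dim to be tested, Il1b at means of 13.6 and 20.9.

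Around Tiparp, 2 of 10 aryl hydrocarbon receptor genes could be tested, Ahr at 0.11 and Arnt2 at 0.46, and the receptor's target Cyp1a1 was dim, at 62.2 ± 29.8 and 53.1 ± 35.1 (SD, n = 4 each). TGF-beta genes around Klf10 had 2 of 5 below 0 (median 0.00493), with Siah1a at 0.21 and Smad2 at 0.09. Clock genes around Bhlhe40 had 2 of 10 below 0 (median 0.15). Arntl, which encodes BMAL1, had 521 ± 79.1 and 684 ± 45.5 (SD, n = 4 each), higher in every pair, with an unadjusted p of 0.0239 in limma, and Per3 had 0.50.

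**Figure D5:**
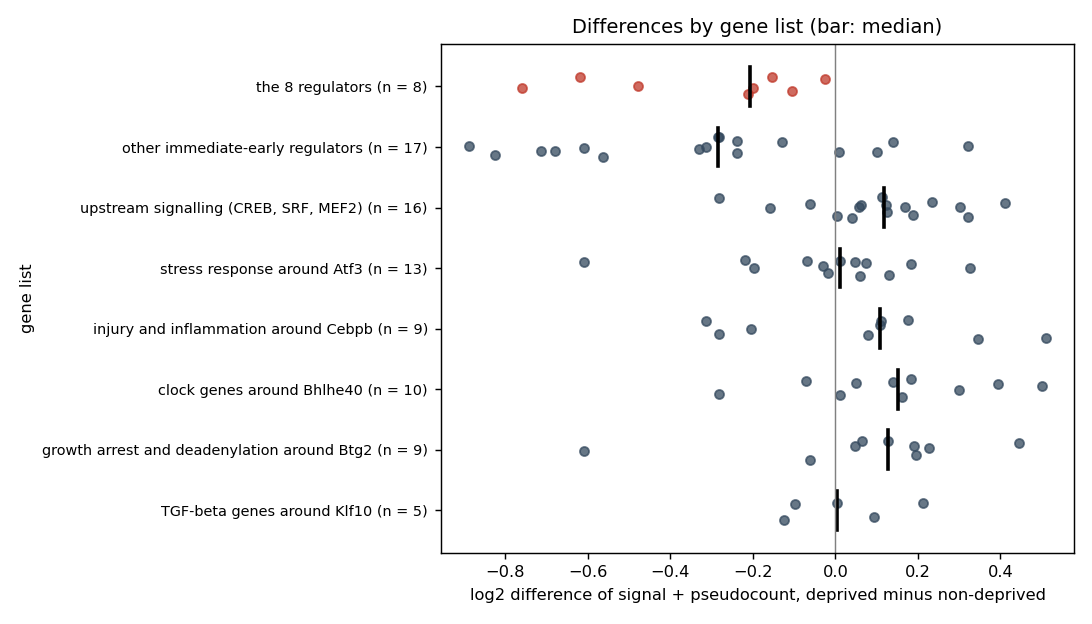
Log2 difference of signal plus pseudocount, deprived minus non-deprived (x axis), for each tested gene of the 8 regulators and of 7 lists (rows; dots are genes, vertical bars medians). The median is -0.21 for the 8 regulators and -0.29 for other immediate-early regulators, and between 0.00493 and 0.15 for the other lists shown.

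Markers of the tissue and of other cells were measured beside these genes. Snap25, Syt1, Gad1 and Tbr1, genes of cortical neurons, were all bright, Tbr1 having mean signals of 5146 and 4838 in the groups. The summed signal of the 7 measured of 10 cortical neuron markers was 27906 to 34329 without and 27670 to 32409 with deprivation, and the other sums follow in that order. For astrocytes (7 of 9 measured) the sums were 11034 to 12888 and 10411 to 11955, for oligodendrocytes (8 of 9) 19151 to 26444 and 21541 to 23500, and for microglia (10 of 10) 6950 to 7788 and 6475 to 7589. Endothelial and mural markers (10 of 10) had 2633 to 3002 and 2529 to 3364, and blood markers (5 of 7) 8008 to 14755 and 8153 to 13486. Thalamus markers (7 of 8) had 2267 to 2621 and 2383 to 2910, and hippocampus markers (5 of 7) 1305 to 1755 and 1158 to 1481. The 3 measured of 5 choroid plexus markers, Ttr among them, were below the filter and summed to 65.3 to 120 and 63.7 to 157. The groups overlapped in every one of these sums. Each sum is weighted to its brightest genes, such as Snap25 (mean signals of 15122 and 14741) for neurons and Mbp (10806 and 10626) for oligodendrocytes. It therefore says little of the dimmer markers. Single tested markers differed in the same direction in 4 of 4 pairs, with 0 passing after adjustment in limma. Tested were 7 neuronal, 6 astrocyte, 7 oligodendrocyte, 8 microglial, 10 endothelial and mural, 2 blood, 5 thalamus and 3 hippocampus markers. Of all tested probe sets, 6.92% were lower in 4 of 4 pairs. The lower markers were Wfs1 of the hippocampus list, S100b of astrocytes, C1qc of microglia and Cldn5 of endothelium, at log2 differences of -0.28, -0.29, -0.18 and -0.30. Wfs1 was also the one tested marker whose deprived arrays all lay below the others, with mean signals of 997 ± 80.4 and 821 ± 91.1 (SD over 4 arrays each). The higher ones were Tcf7l2 (0.32) and Calb2 (0.24) of the thalamus list, Csf1r (0.12) of microglia and Col1a1 (0.15) of the endothelial and mural list. Among the other thalamus markers Lef1 had 0.11, Prkcd 0.07 and Rora -0.11, while Lhx9 and Gbx2 were too dim to be tested. In the hippocampus list Zbtb20 had 0.03 and Neurod1 0.13, while Prox1 and Lct were too dim to be tested. The part of the markers in the differences of the 8 genes was not tested. The 10th percentile of signal, which tracks the dim end of an array, was 13.5 ± 0.718 without and 17.2 ± 2.68 with deprivation (SD over 4 arrays each, two-sided exact permutation p = 0.0286, the smallest that 70 assignments allow). After quantile normalization, which gives all arrays the same distribution, Ier2 had -0.62, Btg2 -0.45 and Tiparp -0.85. Atf3 had -0.10, Crem -0.29 and Cebpb -0.16, against -0.02, -0.20 and -0.11 before it. Klf10 had -0.21 and Bhlhe40 -0.14, against -0.21 and -0.15.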

How the data were processed

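Visual cortex RNA was measured on 8 1-colour arrays, 4 per group. The deposited values are linear signal intensities per probe set, made by the authors with MAS5 per the submitters' processing notes. Its version is not stated in the labels. There were 12488 probe sets and 0 unused sample columns. Arrays were rescaled to the same 2% trimmed mean, 66 controls were dropped, and values were put on the scale log2(signal + 15.3), with the 10th percentile of signals as pseudocount. Probe sets with a mean log2 value above the 40th percentile (7453 of 12422) were tested with limma 3.58.1 in R 4.3.3 (lmFit, eBayes with intensity trend) for group. The probe set with the highest mean stands for a gene, and dim ones were fitted without the filter. Symbols came from the platform annotation (10833 probe sets with 1 symbol, 396 with several, 1193 with none) and were updated by Entrez identifier to GRCm38.p6. Named are all probe sets of the 8 genes, the 3 genes most correlated with each, and the 2 genes with the smallest p from each list of regulators, relatives or pathway genes. Others named from the lists, cell markers included, were picked after their values were seen. The genes, lists and tests were chosen with earlier results of these data known.

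Deviations from group means correlated at 0.158 to 0.422 between arrays of the same number and at -0.272 to 0.123 otherwise. All 4 pairs exceeded the limit of 0.1, so the numbers were taken as pairs for the differences by pair and for the block. The main fit was for group only. The fit was run on simulated data without pairing, and only the size of the added differences had to be recovered. That run does not bear on the p-values of paired arrays. Depth does not apply to arrays, and their number limits the precision. Motifs were searched with Python 3.11.15 and figures drawn with matplotlib 3.10.9. Alternatives were other filters, pseudocounts and scalings, the replicate block, array weights, no trend, control-ratio covariates and leaving out each array.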

Additional observations from a re-analysis of the deposited data

Results flagged for a closer look

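Btg2 in deprived cortex had 1 array far from the other 3 of its group. Deprived replicate 4 had a signal of 2124 and the others 1419 to 1522, and the gap to the nearest was 0.855 of the group's range. In that pair non-deprived replicate 4 was also the highest of its group, at 2736. Of 32 groups of 4 values examined (12 probe sets and 4 array measures, in both hemispheres) this was the only one so marked, where about 1 in 20 is marked by chance.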

How the results depend on the processing

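No alternative called any probe set: limma gave 0 under all 21. The replicate block left the differences as they were, at -0.62 for Ier2, and changed no call, with adjusted p of 0.224 for Ier2, 0.467 for Btg2 and 0.703 for Tiparp. Over the alternatives the adjusted p ran from 0.192 to 1.00 for Ier2, from 0.414 to 1.00 for Btg2 and from 0.567 to 1.00 for Tiparp. Ier2 stayed between -0.71 and -0.47, Btg2 between -0.61 and -0.21 and Tiparp between -1.09 and -0.49. Klf10, Cebpb and Crem also kept their sign under every alternative that could be run. Atf3 turned to 0.0899 without deprived replicate 1, to 0.0233 without non-deprived replicate 2 and to 0.02005 with array weights, over a leave-one-out range of -0.11 to 0.09. Bhlhe40 turned to 0.00486 with the Gapdh ratio. With the filter at the 60th percentile only 4 genes remained (Ier2, Btg2, Klf10 and Bhlhe40), and 4 lay below 0 with a median of -0.35. The median was -0.39 with the actin ratio, and -0.29 to -0.11 with 1 array left out, lowest in size without deprived replicate 4. The causes were not tested. Signals near the filter limit Atf3, Crem and Tiparp.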

Other observations

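Btg2 and Klf10 were both lower on the deprived side in 4 of 4 pairs, yet ran in opposite directions between arrays of a group. Their correlation over the 8 arrays was -0.315, and -0.973 after each group's mean was subtracted. In deprived cortex replicate 4 had the highest Btg2 signal (2124) and the lowest of Klf10 (667), and in non-deprived cortex replicate 4 likewise had the highest of Btg2 (2736) and the lowest of Klf10 (828). Without the 2 arrays farthest from the Btg2 median the correlation over arrays was -0.154. The pairing was picked after seeing the values, among 28, and was not tested.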
